A study of Homo sapiens with 6 samples.

Results

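A set of 10 genes that colorectal cancer and intestinal stem cell studies read as targets of the WNT pathway, AXIN2, LGR5, ASCL2, MYC, NKD1, RNF43, ZNRF3, SP5, TCF7 and LEF1, was followed in cells with and without knockdown of ARMC5. They form a list of names drawn up with earlier results of these data known, and all 10 were found among the 35810 genes to which the quantified transcripts could be matched, and among the 13737 genes with enough reads to be tested. The cells were SPT5-AID cells, a derivative of DLD-1, an established colorectal adenocarcinoma line, in which the elongation factor SPT5 carries an auxin-inducible degron. Both groups carry that degron, and no auxin treatment is named in their labels. One group had been infected with lentivirus for an shRNA against ARMC5 (shARMC5) and the other with a nontargeting shRNA (shNT), with 3 polyadenylated RNA libraries each. The study used 2 ARMC5 constructs and does not state which of them these libraries carry, and nothing in the labels says whether the replicates were separate infections, so the p-values measure the spread between these libraries only.

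In the canonical WNT pathway a secreted WNT binds a Frizzled receptor and an LRP coreceptor, which stops a complex of APC, AXIN, GSK3 and CK1 from marking beta-catenin for destruction. Beta-catenin then enters the nucleus and binds TCF and LEF factors at their target genes. In the intestine this pathway maintains the stem cells at the base of the crypt, and loss of APC, as in DLD-1 cells, keeps it active without ligand. Many of its targets feed back on it: AXIN2 rebuilds the destruction complex, NKD1 acts on Dishevelled, and RNF43 and ZNRF3 remove Frizzled from the cell surface. LGR5 is the R-spondin receptor that marks crypt stem cells, ASCL2 is a basic helix-loop-helix factor that sets their fate, and MYC, SP5, TCF7 and LEF1 encode transcription factors.

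Levels are given as CPM, the reads of a gene per 1000000 reads on genes after TMM scaling between libraries, or as TPM, which also divides by transcript length. Libraries held between 26201112 and 40866478 reads on transcripts, with TMM factors from 0.992 to 1.02. A gene is called when the adjusted p of edgeR's quasi-likelihood test is under 0.1, the threshold of the study. ARMC5 was lower in every shARMC5 library, at 10.8 to 12.9 CPM against 23.0 to 26.7 CPM in shNT (log2 fold change -1.09, with a standard error, SE, of 0.08, adjusted p = 5.32e-07). The epithelial markers EPCAM (982 to 1051 TPM), CDH1 (141 to 172 TPM) and CDX2 (111 to 128 TPM) were present in all libraries, while LGALS4, GPA33 and CDX1 were at or near 0 (at most 16 reads). The 13 markers of fibroblasts, leukocytes and endothelium summed to 2.25 to 2.57 TPM in shARMC5 and 2.37 to 3.47 TPM in shNT, and COL3A1, THY1, CD3E and CDH5 were among those at 0 reads. Of these 13, 4 were tested and 0 were called in edgeR or DESeq2, with 0 at an unadjusted p under 0.05.

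TCF and LEF factors bind short DNA elements that contain CTTTGA, and the promoter of SP5 is shown because it holds more copies of these letters than the other promoters of these genes that could be read. The letters searched were CTTTGA and its reverse complement TCAAAG, which do not overlap each other here, in RefSeq promoters of GRCh38.p14 from 250 bases before to 50 bases after a gene's start. Entries were found for SP5, LEF1, TCF7 and RNF43, and not for AXIN2, LGR5, ASCL2, NKD1, ZNRF3 or MYC. The promoter of SP5, chr2:170715087-170715386 on the plus strand, is printed 5′ to 3′ with each match in capitals.
SP5: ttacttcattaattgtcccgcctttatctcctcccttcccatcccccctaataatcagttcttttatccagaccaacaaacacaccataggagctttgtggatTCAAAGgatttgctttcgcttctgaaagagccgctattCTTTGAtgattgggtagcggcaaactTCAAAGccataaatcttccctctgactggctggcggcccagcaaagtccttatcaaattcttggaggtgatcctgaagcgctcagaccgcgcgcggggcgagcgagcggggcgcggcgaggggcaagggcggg
The 3 matches begin 147, 109 and 83 bases before the annotated start. Of 35116 promoter entries of this length 12.9% hold at least 1 match and 0.0997% hold 3 or more. The entries of LEF1, TCF7 (2 entries) and RNF43 (2 entries) hold none of these letters in this window. A match is a description of the sequence and not a measured binding site.

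The genes were expressed at very different levels, and their order can be read from TPM. AXIN2 was the highest in shNT cells, at 268 ± 6.50 TPM (SD, n = 3), above 96.4% of tested genes or equal to them. ASCL2 followed with 177 ± 5.74 TPM, then MYC with 78.2 ± 7.87, LEF1 with 63.4 ± 2.92 and RNF43 with 57.6 ± 2.70 TPM. TCF7 had 30.1 ± 1.05 TPM, ZNRF3 17.995 ± 0.683 and LGR5 16.2 ± 0.566 TPM, the last near the middle of the tested genes. SP5 (11.5 ± 0.469 TPM) and NKD1 (6.64 ± 0.841 TPM) were the lowest. In shNT no gene's range met that of its neighbour in this order, although LEF1 (lowest 60.9) and RNF43 (highest 60.7) were close. In shARMC5 the ranges of LGR5 (11.997 to 12.7) and SP5 (10.3 to 12.4) and those of SP5 and NKD1 (8.28 to 10.4) overlapped.

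**Figure D1:**
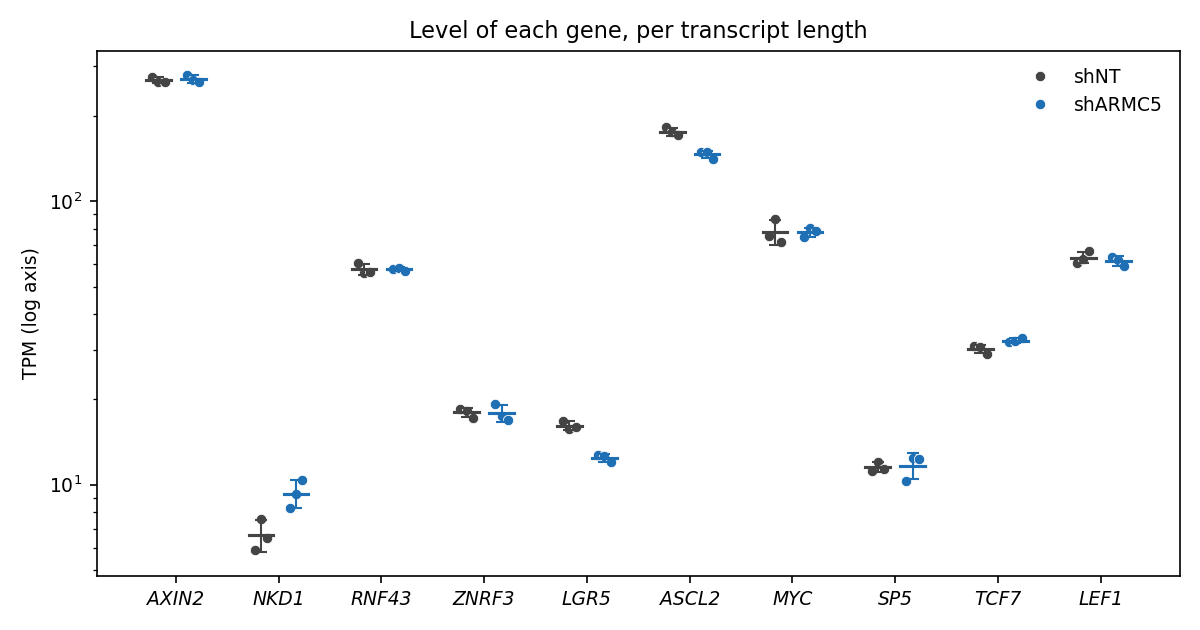
Level of each gene in TPM on a log axis, with a point per library, a bar for the mean and whiskers for the SD (n = 3 per group). AXIN2 and ASCL2 lie highest, and LGR5 and ASCL2 lie lower in shARMC5 (blue) than in shNT (grey).

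The stem cell genes LGR5 and ASCL2 fell in shARMC5 cells, and they were the 2 of the 10 genes that were called. None was called higher, in edgeR or in DESeq2 without a length offset, and at an unadjusted p under 0.05 there was 1 gene on the higher side, TCF7. DESeq2 with an offset for the average transcript length also called NKD1, higher (log2 fold change 0.50, adjusted p = 0.0111). Among all tested genes 7.75% were called, 4.44% higher and 3.30% lower. The median log2 fold change was 0.0043 over the 10 genes and -0.0014 over all tested genes.

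LGR5, on chromosome 12 from 71439798 to 71586310 of GRCh38 on the plus strand (ENSG00000139292), had 34.5, 34.7 and 34.9 CPM in shARMC5 replicates 1, 2 and 3. In shNT replicates 1, 2 and 3 it had 43.0, 42.6 and 45.5 CPM. Every shARMC5 library was below every shNT library, and the 3 shARMC5 values differed from each other by less than 1 CPM. The log2 fold change was -0.33 (SE 0.05, adjusted p = 7.88e-04 from edgeR), and the level fell by 20.5% (95% interval -26.1% to -14.4%). The gene carried 880 to 1405 reads per library. It overlaps TSPAN8, a tetraspanin gene on the opposite strand that was called higher (0.15, adjusted p = 0.0240) on 1943 to 3105 reads, and the kit named in the labels does not mark strand. The part of TSPAN8 reads in the LGR5 values was not tested. In a bulk library, fewer cells with LGR5 mRNA and less LGR5 mRNA per cell cannot be told apart.

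ASCL2 lies on chromosome 11 from 2268498 to 2270588 on the minus strand (ENSG00000183734). It had 156, 156 and 153 CPM in shARMC5 against 182, 188 and 181 CPM in shNT. The groups did not overlap, and the gap between them was larger than the range within either. The log2 fold change was -0.24 (SE 0.03, adjusted p = 6.81e-05 from edgeR) on 3853 to 6168 reads, and the level fell by 15.6% (95% interval -19.1% to -11.9%). ASCL2 has a single listed transcript, so its reads were not divided among transcripts. It ranked 50th by p-value and LGR5 98th.

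Of the 4 feedback inhibitors of the pathway 0 were called in edgeR, 0 had an unadjusted p under 0.05, and DESeq2 called 0 without and 1 with a length offset. AXIN2 (chromosome 17, 65528563 to 65561648, minus strand, ENSG00000168646) had 600, 602 and 614 CPM in shARMC5 and 604, 599 and 598 CPM in shNT. All 6 libraries lay between 598 and 614 CPM, and the groups overlapped. Its log2 fold change was 0.01 (SE 0.02, adjusted p = 0.855), and the 95% interval ran from -0.04 to 0.06, which leaves room for a change of -2.74% to 4.60%. AXIN2 had the narrowest interval of the 10 genes, on 15494 to 23758 reads. The 5 genes whose profile over the 6 libraries was closest to it were SF1, CYC1, CBX1, PCBD1 and TMEM129, with a root mean square difference of 0.0084 to 0.0101 in log2 CPM among 12113 genes compared.

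RNF43, a transmembrane E3 ligase gene on chromosome 17 from 58353676 to 58417595 (minus strand, ENSG00000108375), had 178, 176 and 178 CPM in shARMC5 and 180, 170 and 183 CPM in shNT. The shARMC5 values lay inside the shNT range. Its log2 fold change was -0.0038 (SE 0.03, 95% interval -0.07 to 0.06, adjusted p = 0.967). ZNRF3, its homologue on chromosome 22 from 28883572 to 29057488 (plus strand, ENSG00000183579), had 69.1, 65.7 and 64.7 CPM in shARMC5 and 67.7, 69.7 and 65.0 CPM in shNT. The ranges of ZNRF3 overlapped over most of their length. The log2 fold change was -0.02 (SE 0.04, 95% interval -0.11 to 0.07, adjusted p = 0.849).

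NKD1 (chromosome 16, 50548396 to 50649249, plus strand, ENSG00000140807) gave a different picture by reads and by TPM. By reads it had 26.001, 26.3 and 25.2 CPM in shARMC5 and 25.9, 23.3 and 25.3 CPM in shNT, with overlapping groups. The log2 fold change was 0.06 (SE 0.06, 95% interval -0.07 to 0.19, adjusted p = 0.688). By TPM it had 8.28, 9.25 and 10.4 in shARMC5 and 5.90, 7.55 and 6.46 in shNT. Here every shARMC5 library was above every shNT library, with p = 0.1 in a two-sided exact permutation test, the smallest that 3 libraries against 3 allow. With an offset for the average transcript length the log2 fold change was 0.50 in both edgeR and DESeq2. It was called in DESeq2 (adjusted p = 0.0111) and not in edgeR (adjusted p = 0.146).

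The reads and the TPM of NKD1 were divided differently among its transcripts. The full-length transcript NKD1-201, of 17039 bases, held 91.5% to 95.1% of the gene's reads but at most 35.5% of its TPM. NKD1-202, of 477 bases and without an annotated coding sequence, had 19.8, 42.5 and 35.4 estimated reads in shARMC5 and 8.11, 18.6 and 15.5 in shNT. These few reads made up 39.7%, 58.6% and 65.9% of the TPM of NKD1 in shARMC5 and 22.2%, 37.8% and 42.5% in shNT, and the groups overlapped. For NKD1-201 on its own the fitted log2 difference was 0.03 (SE 0.07, unadjusted p = 0.663 from edgeR over transcripts). NKD1-202 was not called either, at 1.16 (SE 0.56, 95% interval -0.22 to 2.53, unadjusted p = 0.0849).

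**Figure D2:**
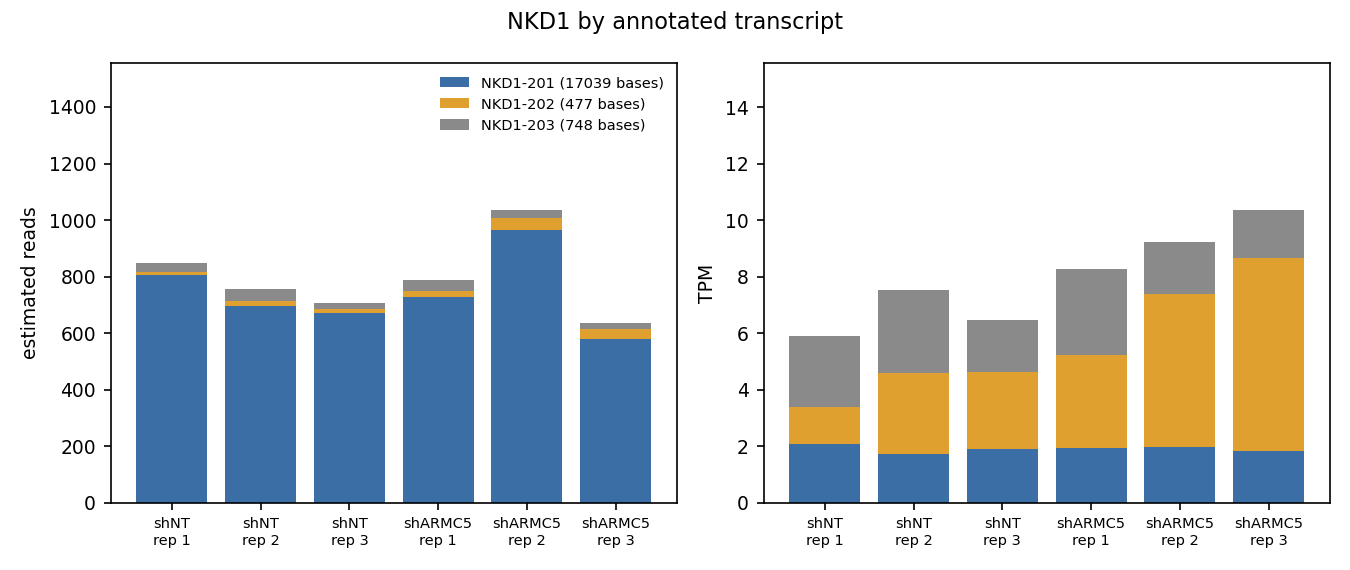
NKD1 in each library, as estimated reads (left) and as TPM (right), divided among its 3 annotated transcripts. The 17039-base transcript takes nearly all reads, while the 477-base transcript takes 22.2% to 65.9% of the TPM.

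Of the 4 transcription factor genes 0 were called in edgeR or DESeq2, and 1, TCF7, had an unadjusted p under 0.05. MYC, a growth regulator on chromosome 8 from 127735434 to 127742951 (plus strand, ENSG00000136997), had 103, 109 and 108 CPM in shARMC5 and 98.0, 116 and 102 CPM in shNT. The shARMC5 libraries lay within the shNT range, which spanned 98.0 to 116 CPM. Its log2 fold change was 0.01 (SE 0.06, 95% interval -0.14 to 0.16, adjusted p = 0.951), so that any change from -9.09% to 11.9% lies inside the interval. Without shNT replicate 2 the log2 fold change was 0.09 (adjusted p = 0.227). A transcript listed after those of MYC, with 245 to 625 reads per library, could not be matched to a gene and was left out. With such transcripts added to the gene listed before them, MYC had 0.049 (SE 0.035), but that order does not identify the gene.

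SP5, whose promoter is shown above, lies on chromosome 2 from 170715337 to 170718078 (plus strand, ENSG00000204335) and encodes a zinc finger factor. It had 11.4, 12.7 and 13.9 CPM in shARMC5 and 11.2, 12.9 and 12.5 CPM in shNT. The groups overlapped, and with 347 to 500 reads SP5 had the widest interval of the 10 genes, from -0.14 to 0.25 around a log2 fold change of 0.06 (SE 0.09, adjusted p = 0.804).

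TCF7 and LEF1, which encode sister HMG-box factors that bind beta-catenin, lay on opposite sides of 0. TCF7 (chromosome 5, 134114681 to 134151865, plus strand, ENSG00000081059) had 58.0, 59.8 and 57.7 CPM in shARMC5 and 56.9, 54.1 and 50.9 CPM in shNT. Its groups did not overlap, but the lowest shARMC5 library was less than 1 CPM above the highest shNT library. The log2 fold change was 0.12 (SE 0.05, unadjusted p = 0.0216, adjusted p = 0.178 from edgeR), short of the threshold. It overlaps SKP1 on the opposite strand, which carried 6991 to 11328 reads against 1426 to 2357 for TCF7, and its reads cannot be told apart from those of TCF7 by strand.

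LEF1 (chromosome 4, 108047545 to 108168956, minus strand, ENSG00000138795) had 76.3, 72.9 and 77.0 CPM in shARMC5 and 78.4, 78.3 and 79.5 CPM in shNT. All shARMC5 libraries were below all shNT libraries by CPM, while by TPM the groups overlapped (59.0 to 63.8 against 60.9 to 66.6 TPM). The log2 fold change was -0.06 (SE 0.04, 95% interval -0.14 to 0.01, adjusted p = 0.381). Together, 4 of the 10 genes had groups that did not overlap in CPM, LGR5, ASCL2 and LEF1 lower and TCF7 higher. Over all tested genes this held for 23.4%, with 10.9% lower and 12.5% higher.

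**Figure D3:**
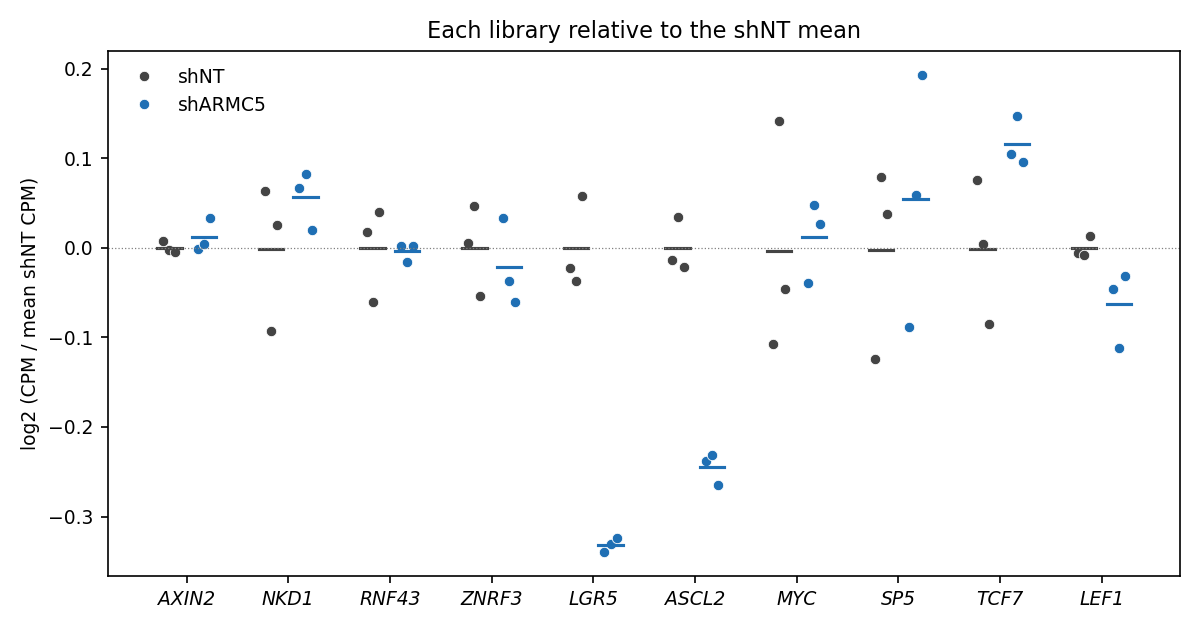
Each library as the log2 ratio of its CPM to the mean of the shNT libraries, for the 10 genes, with bars at the mean of the log2 ratios (n = 3 per group). The shARMC5 points of LGR5 and ASCL2 lie well below all shNT points, and those of AXIN2 cluster around 0.

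TCF7 and LEF1 are also made as short forms that lack the part that binds beta-catenin, so their transcripts with an annotated coding sequence were divided by whether they begin at the coding start of the annotated canonical transcript. For TCF7 2 of 17 such transcripts do (14 are annotated as protein coding and 3 as targets of nonsense-mediated decay), and they held 65.8%, 75.0% and 68.7% of the coding TPM in shARMC5 and 78.7%, 63.5% and 71.7% in shNT. The groups overlapped (p = 0.8, two-sided exact permutation test, n = 3 per group). For LEF1 4 of 8 do (6 protein coding and 2 targets of nonsense-mediated decay), with 86.3%, 89.4% and 98.1% in shARMC5 and 98.2%, 79.5% and 85.7% in shNT (p = 0.6, same exact test). With 3 libraries against 3 this test cannot go below 0.1, so it does not show whether the coding start shifted. The division follows the annotated coding start only and does not identify the short forms. For both genes the transcripts with another start include targets of nonsense-mediated decay and entries much shorter than the canonical transcript. These percentages are therefore not the share of forms with the part that binds beta-catenin, and the remainder is not the share of short forms. In addition, salmon divides the reads that transcripts share.

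Of the 86 listed transcripts of the 10 genes 43 were tested, and 0 were called in edgeR's test over 49809 transcripts, where 4 (0.00803%) were called in all. At an unadjusted p under 0.05 there were 4, against 4.93% of all tested transcripts, and DESeq2 was not run on transcripts. These 4 were ASCL2-201, LGR5-201, LGR5-206 and RNF43-203. The main LGR5 transcript, LGR5-201 of 4583 bases, had a value of -0.25 on the log2 scale (SE 0.05, unadjusted p = 0.00295, adjusted p = 0.387). LGR5-206, a retained-intron transcript with 20.3, 39.5 and 36.6 reads in shARMC5 and 92.4, 58.9 and 116 in shNT, had -1.48 (SE 0.47, adjusted p = 0.819). RNF43-203, a coding transcript of 4367 bases, had 0.42 (SE 0.10, unadjusted p = 0.00480, adjusted p = 0.457). It held 11.8%, 12.5% and 10.6% of the TPM of RNF43 in shARMC5 and 9.03%, 8.58% and 8.92% in shNT, so its groups did not overlap while RNF43 as a whole was not called. Of the 32 transcripts with a mean share of at least 5% in either group, 2 (LGR5-201 and RNF43-203) had shares that did not overlap between groups. Over all 43479 such transcripts of tested genes this held for 9.36%. The share of LGR5-201 in the TPM of LGR5 was higher in shARMC5 (78.2%, 79.9% and 86.1%) than in shNT (75.5%, 74.5% and 76.2%).

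Ratios between genes of the same library do not depend on the scaling between libraries, and AXIN2, the most abundant of the 10 genes, was taken as the reference. Per 100 AXIN2 reads there were 5.75, 5.76 and 5.68 LGR5 reads in shARMC5 and 7.12, 7.10 and 7.60 in shNT. For ASCL2 the same ratio was 25.95, 25.96 and 24.9 in shARMC5 and 30.1, 31.4 and 30.2 in shNT. Both ratios were lower in all shARMC5 libraries than in all shNT libraries, as was that of LEF1 (12.1 to 12.7 against 13.0 to 13.3). Each of these gave p = 0.1 in a two-sided exact permutation test (n = 3 per group), the smallest possible, and 0.3 after adjustment over the 9 ratios. The ratios of the other 6 genes overlapped between groups. Over all other tested genes the ratio to AXIN2 did not overlap for 22.8%, with 12.8% lower and 9.99% higher. AXIN2 varied little between libraries, so these ratios largely repeat the CPM values.

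**Figure D4:**
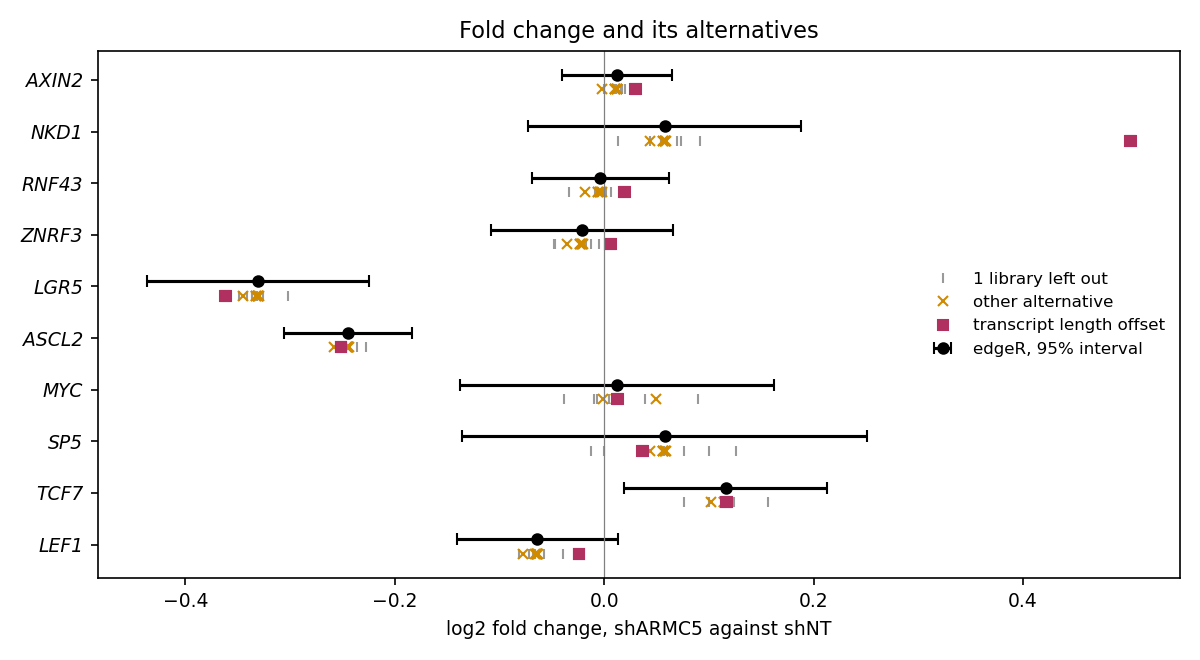
Log2 fold change of each gene with its 95% interval from edgeR (black), and the values under the alternatives: 1 library left out (grey ticks), transcript length offset (dark pink squares) and other alternatives (orange crosses). The intervals of LGR5, ASCL2 and TCF7 exclude 0, and NKD1 moves to 0.50 with the length offset.

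Other genes were described with 11 lists. The 7 lists of the WNT pathway, its other targets and other stem cell genes hold 130 genes, and of the 95 that were tested 13 (13.7%) were called, 6 higher and 7 lower, with a median log2 fold change of -0.01. The other 4 lists, of differentiated cells, the MYC network, colorectal epithelium and other cell types, hold 59 genes, of which 28 were tested and 7 were called, 3 higher and 4 lower. Among all tested genes 7.75% were called, and the lists were chosen with earlier results of these data known, so the share of the lists is a description only. Of 25 genes for WNT ligands, R-spondins and WNT secretion 9 were tested, and 11 had no read in any library, WNT1, WNT2, WNT3A and RSPO3 among them. WLS, which carries WNT proteins to the cell surface, was the 1 gene of this list called, with 93.4, 92.0 and 91.2 CPM in shARMC5 and 84.6, 81.8 and 87.1 in shNT (log2 fold change 0.13, adjusted p = 0.0521). It was not called in 7 of 15 alternatives: with the length offset in edgeR (adjusted p = 0.616) or DESeq2 (adjusted p = 0.663), in DESeq2 without it (adjusted p = 0.1003), and without shARMC5 replicates 1 or 2 or shNT replicates 1 or 2 (adjusted p at most 0.142).

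Among the 15 tested receptor genes 2 were called lower and 0 higher, and the median log2 fold change was -0.09. The Frizzled genes FZD5 (17.7 to 18.1 CPM in shARMC5, 19.6 to 22.5 in shNT, log2 fold change -0.25, adjusted p = 0.0429) and FZD3 (19.1 to 20.9 against 22.2 to 24.4 CPM, -0.22, adjusted p = 0.0594) were those. Each lost its call in 6 of 15 alternatives, for both genes without shARMC5 replicates 1 or 2 or shNT replicate 1 and with the length offset, where FZD3 went to -0.03 (adjusted p up to 0.956) and FZD5 was at -0.25 (adjusted p up to 0.254). The coreceptor genes LRP5 (-0.09, adjusted p = 0.172) and LRP6 (-0.09, adjusted p = 0.374) and the R-spondin receptor gene LGR4 (-0.25, adjusted p = 0.144) were not called.

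In the cytoplasm, CTNNB1, which encodes beta-catenin, was the 1 of 18 tested genes called, with 444, 449 and 440 CPM in shARMC5 and 416, 425 and 416 CPM in shNT. The difference was small (log2 fold change 0.08, SE 0.02, adjusted p = 0.0584), and it was not called in 8 of 15 alternatives. These include library size only, both length offsets (0.03, adjusted p up to 0.905) and the fits without shARMC5 replicates 1 or 2 or shNT replicates 1 or 3 (adjusted p at most 0.205). APC (log2 fold change -0.07, adjusted p = 0.502), AXIN1 (0.06, adjusted p = 0.446) and GSK3B (-0.02, adjusted p = 0.855) were not called. Of the 16 tested nuclear partners 0 were called in edgeR, 0 had an unadjusted p under 0.05, and DESeq2 called 0, or 1 with the length offset. The most abundant, the Groucho-related corepressor gene TLE5, differed by -0.04 on the log2 scale (adjusted p = 0.527 from edgeR).

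Of 21 secreted and membrane inhibitors 10 were tested, and DKK1, DKK4, SFRP1, SFRP5 and SOSTDC1 had no reads. APCDD1, a membrane inhibitor and itself a WNT target, was called lower, with 7.95, 6.49 and 6.78 CPM in shARMC5 and 10.03, 8.67 and 8.99 in shNT (log2 fold change -0.39, adjusted p = 0.0602, 171 to 328 reads). It was not called in DESeq2 without the offset or without shARMC5 replicates 2 or 3 or shNT replicates 1 or 3 (adjusted p at most 0.246), while the length offset moved it to -0.91. NKD2, the paralogue of NKD1, stood at 0.19 (adjusted p = 0.445), and NOTUM had 18 to 32 reads.

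Other beta-catenin targets went both ways, with 3 of 17 tested genes called higher and 2 lower (median log2 fold change 0.03). EPHB2, the Eph receptor that positions cells along the crypt, fell from 51.1, 45.2 and 47.2 CPM in shNT to 40.3, 36.0 and 36.2 CPM in shARMC5. Its groups did not overlap, and its log2 fold change of -0.35 (SE 0.06, adjusted p = 0.00161) was of the size of that of LGR5. CCND1, which encodes cyclin D1, rose from 855, 897 and 842 to 976, 984 and 962 CPM (log2 fold change 0.17, SE 0.03, adjusted p = 0.00149). The receptor kinase gene MET rose from 194 to 204 CPM in shNT to 219 to 223 CPM in shARMC5 (0.15, adjusted p = 0.00428), but it was not called with either length offset (0.10, adjusted p up to 0.332). EPHB2 and CCND1 were called in all 15 alternatives. FGF18, which encodes a fibroblast growth factor, had 3.27, 3.65 and 5.39 CPM in shARMC5 and 2.78, 2.50 and 1.96 in shNT (0.75, adjusted p = 0.0494, 55 to 144 reads), but lost its call with the length offsets or without shARMC5 replicate 3 or shNT replicates 2 or 3 (adjusted p at most 0.25). VSNL1 (-0.15, adjusted p = 0.0751), a neuronal calcium sensor gene, was not called in 9 of 15 alternatives, among them each library left out (adjusted p 0.1004 to 0.210). CD44 (0.02, adjusted p = 0.909) and SOX9 (0.03, adjusted p = 0.596) were not called.

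Among 10 tested genes of other stem cell signatures 1 was called higher and 2 lower. SLC12A2, a chloride cotransporter gene used as a crypt stem cell marker, fell from 852, 771 and 824 CPM in shNT to 679, 660 and 665 CPM in shARMC5 (log2 fold change -0.29, SE 0.03, adjusted p = 7.03e-05). BMI1, a Polycomb gene, rose from 58.3, 59.7 and 61.8 to 69.2, 74.4 and 72.3 CPM (0.27, adjusted p = 9.85e-04) but lost its call with the length offset in edgeR (0.22, adjusted p = 0.215). TERT, the telomerase gene, had 1.19, 1.09 and 1.27 CPM in shARMC5 and 2.11, 2.37 and 2.21 in shNT (-0.92, adjusted p = 0.0295) on 32 to 77 reads, but lost its call with the length offsets (adjusted p up to 0.409) or without shARMC5 replicate 2 (adjusted p = 0.106). The stem cell genes OLFM4 and SMOC2 had no reads.

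Few genes of differentiated intestinal cells passed the count minimum. Of 24 genes of enterocytes, goblet, enteroendocrine and Paneth cells, KRT20 was not analysed here and 5 were tested. Of these 5 genes 0 were called in edgeR or in either DESeq2 fit, and 0 had an unadjusted p under 0.05. The most abundant was TFF3, a goblet cell gene, at -0.19 on the log2 scale (adjusted p = 0.352 from edgeR), and FABP1, SLC26A3, CA4, GUCA2B, DEFA5 and DEFA6 had no reads. Among the epithelial markers VIL1, which encodes the brush border protein villin, fell from 11.01, 10.6 and 11.8 CPM in shNT to 4.12, 4.54 and 4.96 CPM in shARMC5 (log2 fold change -1.30, SE 0.11, adjusted p = 2.77e-06). CDH17, the cadherin gene of the intestinal lining, fell from 88.8, 82.7 and 94.3 to 72.1, 74.2 and 74.3 CPM (-0.27, adjusted p = 0.00154), but lost its call with the length offset in edgeR (-0.26, adjusted p = 0.142) and not in DESeq2 (adjusted p = 0.0164). The keratin genes KRT18 (0.25, adjusted p = 1.20e-05), KRT8 (0.18, adjusted p = 4.12e-04) and KRT19 (0.11, adjusted p = 0.0228) rose, and KRT19 was not called with the length offset in edgeR (0.10, adjusted p = 0.124). CDX2, which encodes a factor that defines intestinal epithelium, had 0.01 (adjusted p = 0.905). The part of VIL1, CDH17 and the keratins in the lower levels of LGR5 and ASCL2 was not tested.

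MYC acts with MAX, against the MXD and MNT factors, and 2 of the 11 genes of this network were called lower. MYCL, a MYC paralogue, fell from 15.0, 12.6 and 13.9 CPM in shNT to 8.84, 9.56 and 9.60 CPM in shARMC5 (log2 fold change -0.57, SE 0.09, adjusted p = 0.00109). MLXIP, which encodes the glucose-responsive factor MondoA, fell from 129, 121 and 122 to 112, 105 and 106 CPM (-0.21, adjusted p = 0.00259). MYC itself was not called, and the groups of both called genes did not overlap.

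**Figure D5:**
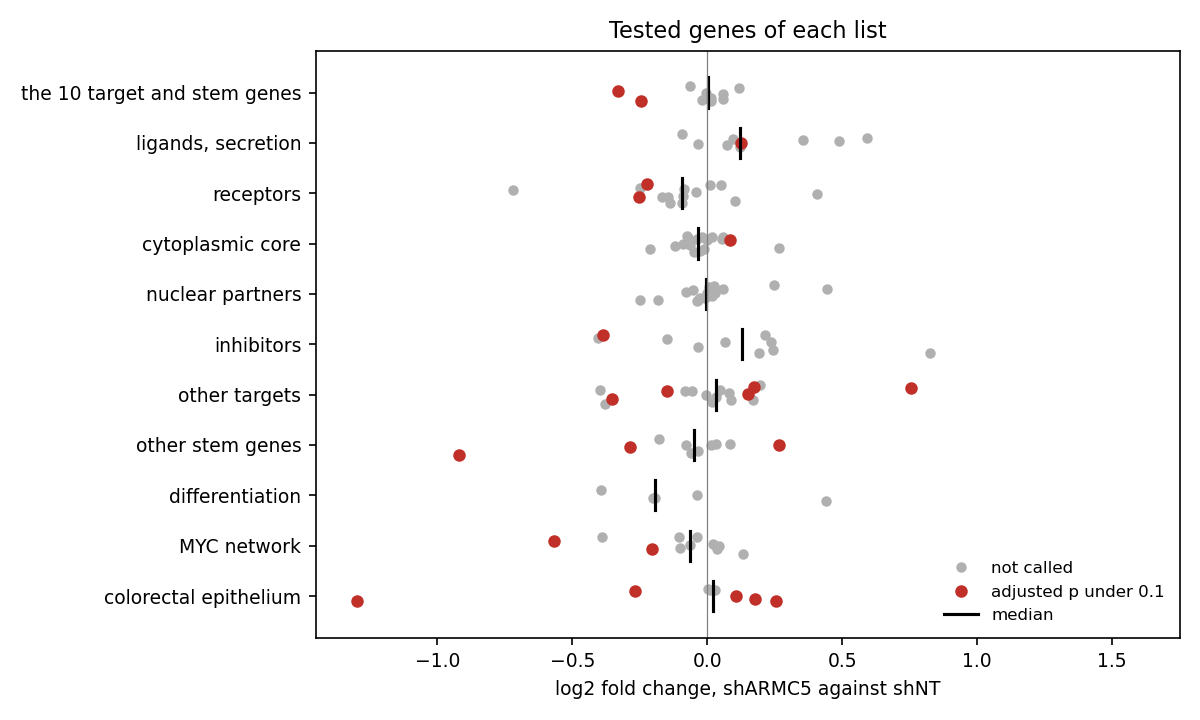
Log2 fold changes of the tested genes of each list, with called genes in red, other genes in grey and a black line at the median of the list. LGR5 and ASCL2 are the red points of the top row, and VIL1, at -1.30, is the lowest point of the colorectal epithelium.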

How the data were processed

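The authors trimmed reads with cutadapt 4.2 and quantified them with salmon 1.9.0 and its GC correction, on hg38 per the labels. The transcript set is not given in the sources used here. The deposited tables give an estimated count of reads and a TPM value for each of 177456 transcripts, as salmon wrote them, without scaling between libraries. Identifiers without version matched GENCODE 44 (GRCh38) for 165533 transcripts. The other 11923, with 2.96% to 3.04% of reads, were left out, and KRT20 was not analysed here. The estimated counts of a gene's transcripts were added and rounded.

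The count minimum was 10, to be reached by 3 libraries or more, and genes that passed were tested with edgeR 4.0.16 (R 4.3.3; quasi-likelihood, robust, TMM, condition only) with Benjamini-Hochberg adjustment over all of them. Transcripts were tested likewise. The SE of each gene, which covers counting error and the spread between libraries, gives its precision. Intervals are the 95% intervals of the fit. Single values were compared with exact permutation tests (scipy 1.17.1). The study itself summarized transcripts with tximeta and tested genes with DESeq2. Here DESeq2 1.42.0, with and without the length offset, was an alternative. Sequences are RefSeq's.

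The genes and lists were chosen with earlier results of these data known. Named are ARMC5, the 10 genes, at most 6 called genes per list and direction, the most abundant gene of a list without a call, and the 5 genes closest to AXIN2 with a mean of at least 1 CPM. Others (such as EPCAM, CDX2, LRP5, APC and SKP1) were named after their values were seen. ChIP-seq and mass spectrometry were not analysed here.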

Additional observations from a re-analysis of the deposited data

How the results depend on the processing

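LGR5 (log2 fold change -0.36 to -0.30, adjusted p up to 0.0282) and ASCL2 (-0.26 to -0.23, up to 0.0105) were called lower in each of 15 alternatives, and 2 of the 10 genes were called in all of them except DESeq2 with the length offset, which added NKD1 (0.50). Leaving out 1 library gave 2 genes each time. Genes that were near 0 changed sign, and none was called: AXIN2 (-0.0018) and MYC (-0.0014) with library size only, RNF43 (0.020 in edgeR, 0.019 in DESeq2) and ZNRF3 (0.0066 and 0.0059) with the length offset. With 1 library left out, RNF43 ranged from -0.033 to 0.016, ZNRF3 from -0.048 to 0.0030, MYC from -0.038 to 0.090 and SP5 from -0.012 to 0.13. In the same fits NKD1 ranged from 0.013 to 0.092 and LEF1 from -0.081 to -0.039. TCF7 ranged from 0.076 to 0.16 and AXIN2 from 0.00011 to 0.020, and none of these genes was called. Over all genes 1064 were called, 234 with the length offset in edgeR, 568 with it in DESeq2, 676 at an adjusted p under 0.05, 1537 with at least 1 count, and 536 to 1085 with 1 library left out (536 without shNT replicate 1, 600 without shARMC5 replicate 2, 694 without shNT replicate 3 and 1085 without shNT replicate 2). Library size only gave 458 higher and 495 lower against 610 and 454. Of the genes of all 11 lists 20 were called, 9 with the length offset in edgeR and 13 to 19 with 1 library left out (13 without shARMC5 replicate 2). Adding each unmatched transcript to the gene listed before it, an order that does not identify the gene, gave 1100 genes and 2 of the 10, with MYC at 0.049 (SE 0.035, adjusted p = 0.504) against 0.012 (SE 0.064). Of the transcripts of the 10 genes 0 were called in edgeR in every alternative run. Over all tested genes, libraries with the same replicate number showed little correlation in their deviations from the group means (r = 0.00045, 0.015 and 0.032). This does not settle whether the libraries were paired. With a replicate block 1766 genes were called, against 1064 without it. The block fit called 26 list genes, 2 of the 10 genes and 0 of their transcripts. The causes of these differences were not tested. TERT and FGF18 were measured on 32 to 77 and 55 to 144 reads per library.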
